A study of Mus musculus with 6 samples.

Results

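Amino acid transporter genes were examined in spermatogonia of Ddx20 knockout mice. The 32 genes were the listed members of the solute carrier families SLC1, SLC3, SLC7, SLC36, SLC38 and SLC43. They were taken by symbol from the annotation of the mouse genome build mm10, and the list was drawn up with earlier results of these data known. Of these, 31 had a row among the 22579 genes of the deposited table, and Slc3a1 was not analysed here. The groups were 3 libraries from control littermates (genotype "Control") and 3 from Ddx20 knockouts (genotype "Ddx20 knockout", abbreviated cKO in the sample descriptions), each made from about 1000 THY1-positive spermatogonia taken at day 4. Sorting on the surface antigen THY1 enriches for undifferentiated spermatogonia, and DDX20 is an RNA helicase of the SMN complex, which assembles the RNA-protein particles of the spliceosome. cKO is the usual short form of conditional knockout, but the labels name no Cre driver, no strain, no target cell of the deletion and no Cre status of the controls. No label says which animal or litter a library came from, so every p-value rests on the variation among these 6 libraries, possibly technical variation alone.

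Cells take up amino acids through carriers that differ in substrate, ion coupling and location. SLC7A5, SLC7A6, SLC7A7, SLC7A8, SLC7A10 and SLC7A11 are light chains that reach the cell surface only when joined to the heavy chain SLC3A2, also called CD98. SLC7A1, SLC7A2 and SLC7A3 carry arginine and lysine without a heavy chain, SLC38 proteins carry glutamine and other neutral amino acids, and several SLC36 and SLC38 proteins sit in the lysosome, where amino acids are reported to the growth kinase complex mTORC1. When amino acids run short, the kinase GCN2 (gene Eif2ak4) raises the transcription factor ATF4, and several transporter genes are among the known ATF4 targets.

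The libraries held between 8428871 and 12497967 counted reads. Ddx20 itself had 668, 383 and 531 reads in the control libraries but 128, 168 and 119 in those from knockouts, without overlap, so the libraries followed their genotype labels (edgeR adjusted p 0.0118). Knockout 1 and knockout 2 were unusually alike: averaged over genes, the chi-square between their counts came to 1.78, close to the value of 1 for pure sampling noise, and to between 11.96 and 104 for the other pairs. For this reason each called transporter gene, and the count of called transporter genes, is also given with knockout 1 and 2 counted as 1 library. Family sums and single genes outside the set are given with all 6 libraries only. All 13 germ cell and spermatogonial markers were detected, with a summed level of 3980 to 4763 CPM in controls and 4283 to 4676 CPM in knockouts, and 4 of them (Gfra1, Ret, Itga6 and Etv5) fell. CPM is the usual depth-normalised read count, here after TMM scaling, which corrects for differences in library composition. Mitochondrially encoded genes took 14.0% to 16.9% of reads in controls and 19.8% to 20.1% in knockouts. Summed markers of other testis cells were higher in the knockouts for 5 of 6 types, without overlap between the groups: 66.9 to 84.3 CPM against 146 to 184 CPM for Sertoli cells, 64.5 to 80.7 against 163 to 233 for peritubular myoid cells, 49.9 to 54.7 against 70.0 to 73.5 for endothelial cells, 798 to 1803 against 1948 to 2783 for macrophages and 53.0 to 70.6 against 79.4 to 104 for T lymphocytes. Of these markers 3 of 8 tested for Sertoli cells, 2 of 5 for myoid cells and 2 of 8 for T lymphocytes were called higher by edgeR. None was at 0 throughout a group. Over all genes tested, 2.03% were called higher and 2.8% lower. None of the 8 macrophage markers was called. The most abundant of them was Lyz2, and Csf1r overlapped between the groups (values below). Leydig cell markers overlapped, at 35.7 to 68.5 and 48.7 to 68.1 CPM. In bulk samples like these, fewer cells of a type and less RNA per cell cannot be told apart.

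Transcripts of the heavy chain Slc3a2 dominated the set. Per kb of exon, the scale used for every comparison of levels between genes, Slc3a2 stood at 77.7 ± 10.8 CPM per kb in controls and 75.2 ± 9.10 in knockouts (SD, n = 3 per group), above 95.3% of the genes tested. In the mean over all libraries it made up 51.9% of the summed level of the 31 genes. The leucine carrier gene Slc7a5 followed with 23.4 ± 7.27 CPM per kb in controls and 14.4 ± 1.46 in knockouts. Next in the controls came 2 genes of the SLC38 family, Slc38a2 at 6.69 ± 0.311 and Slc38a4 at 6.30 ± 0.962, which did not differ beyond their spread. In the knockouts Slc38a4 had 13.0 ± 1.55, within the spread of Slc7a5 and above Slc38a2 at 5.92 ± 0.685. The order of Slc38a4 and Slc38a2 depended on their exon lengths, 4261 and 8838 bases. Without division by length they had 55.2 ± 6.59 and 52.4 ± 6.06 CPM in knockouts. In controls they had 26.8 ± 4.10 and 59.1 ± 2.75 CPM. At the other end, 3 genes lay near the detection floor. Slc7a10, which encodes a carrier of glycine and serine, had at most 13 reads in any library, and Slc38a3, a glutamine carrier gene, had at most 27. Slc1a2, the main glutamate carrier gene of astrocytes, had 1, 5 and 0 reads in controls against 42, 30 and 7 in knockouts. It did not pass the filter on low counts, and without that filter its edgeR adjusted p was 0.0930.

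**Figure D1:**
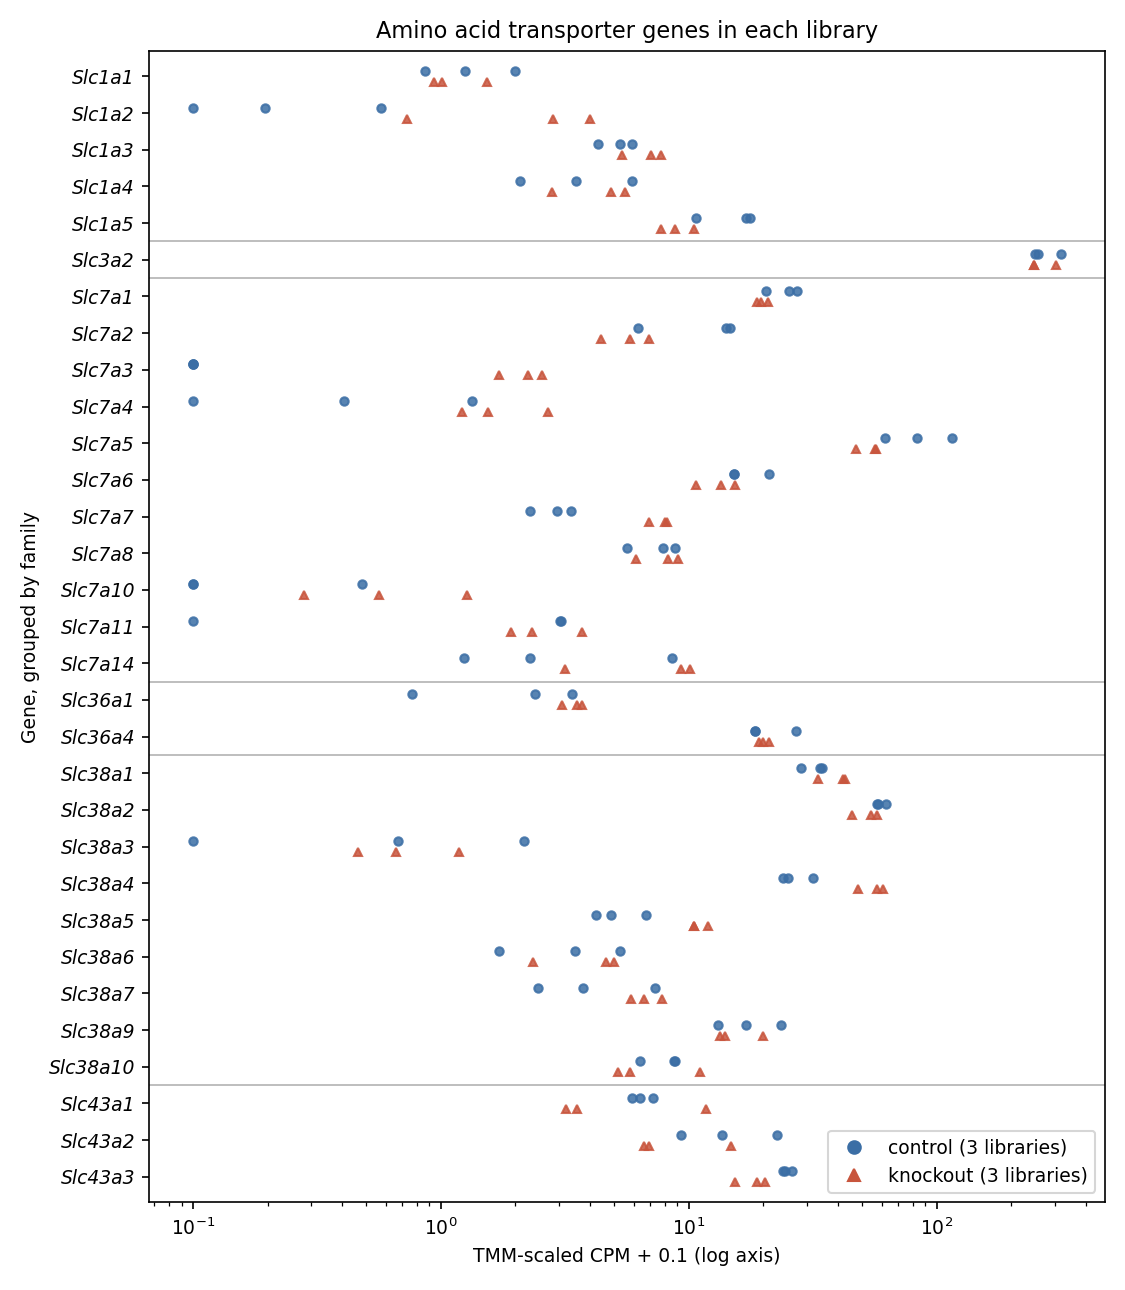
TMM-scaled CPM plus 0.1 on a log axis for the 31 genes with a row in the table, grouped by family, with 3 control libraries as circles and 3 knockout libraries as triangles. Slc3a2 lies farthest to the right in every library, Slc7a3 sits at 0 CPM in all 3 controls, and the groups of most genes overlap.

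Of the 28 genes tested, 2 rose in the knockouts, Slc38a4 and Slc7a3, none fell, and 26 did not pass the edgeR quasi-likelihood test at an adjusted p under 0.05. The 2 genes are 7.14% of those tested, against 4.83% of all 14766 genes tested (2.03% higher and 2.8% lower). At an unadjusted p under 0.05 by edgeR there were 4 higher and 3 lower genes, 25.0% of the 28 against 24.1% of all genes (11.3% higher and 12.8% lower). The 3 controls and 3 knockouts did not overlap in 8 of the 28, 4 higher and 4 lower, which is 28.6% against 32.6% of all genes (16.8% higher and 15.8% lower). These shares are near those of the whole transcriptome. The median log2 fold change was 0.01, also with Slc7a3 at its lower bound, and that of all genes was 0.01. DESeq2 called 5 of the 28 and limma-voom 7, against 11.1% and 19.5% of all genes. When knockout 1 and 2 were taken as 1 library, edgeR called 0 of the genes, and 6 had an unadjusted p under 0.05. In the whole table it then called 1 gene, 0.00649%, with 14% at an unadjusted p under 0.05. DESeq2 and limma-voom each called Slc38a4 alone in that setting. There DESeq2 gave many of the transporter genes no adjusted p, among them Slc7a3 (DESeq2 unadjusted p 0.000489), Slc7a7 and Slc38a5.

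**Figure D2:**
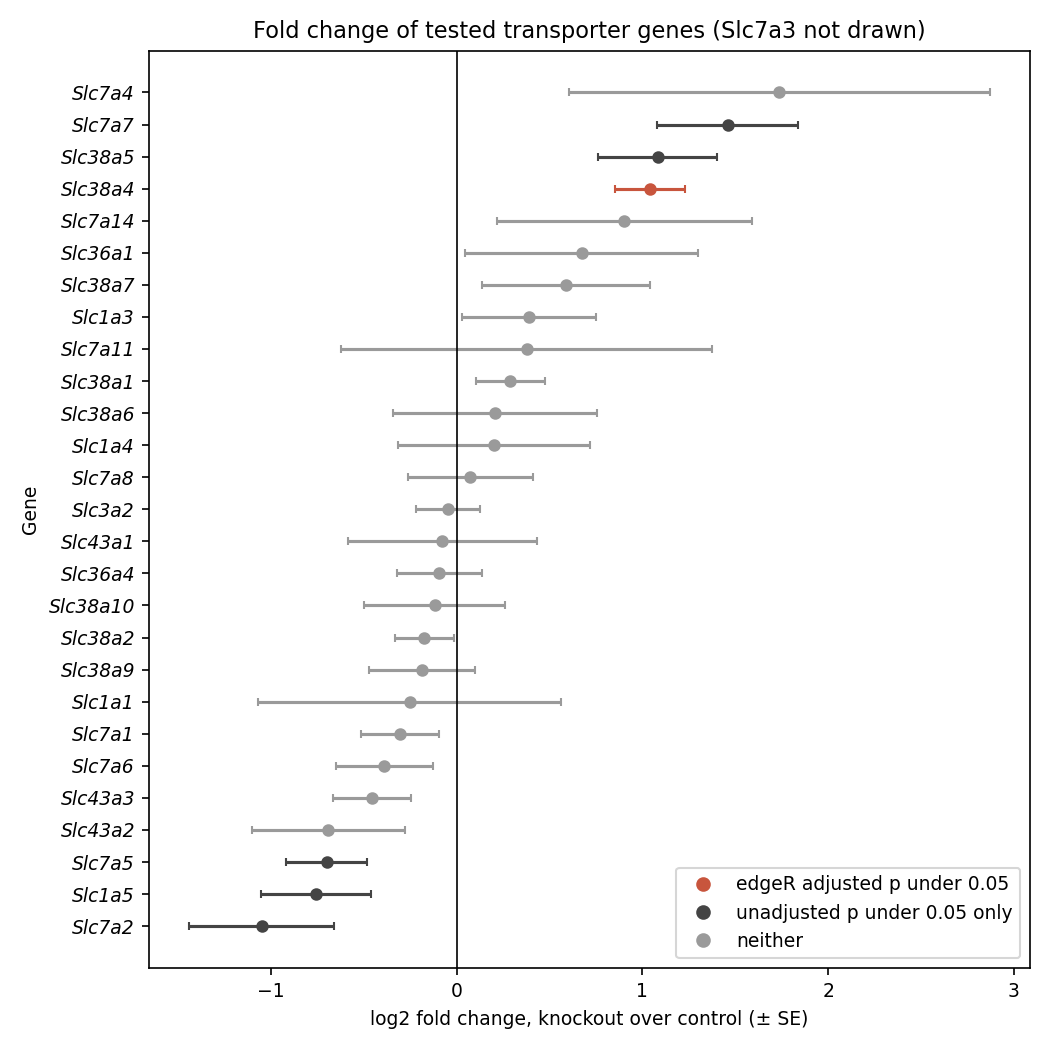
log2 fold change of knockout over control with its standard error for 27 of the 28 tested genes, ordered by value; Slc7a3 is not drawn because it had no read in the controls. Slc38a4 is the called gene shown, at 1.04 ± 0.19, and Slc7a7, Slc38a5, Slc7a5, Slc1a5 and Slc7a2 passed at an unadjusted p only.

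Among the arginine and lysine carriers, Slc7a3 was detected in the knockouts alone. Slc7a3 (ENSMUSG00000031297; chromosome X, 101079210 to 101086020 of mm10, minus strand) encodes the cationic amino acid transporter CAT3, known chiefly from brain. It had 0 reads in each of the 3 controls and 23, 27 and 18 reads in the knockouts, or 2.14, 2.45 and 1.62 CPM. Every knockout library thus held the transcript at a low level. The knockout libraries also detected more genes in general, 19127 to 19447 with a read against 16822 to 18138 in controls. The share of all genes with reads in the knockouts alone is not given here. Relative to total counts the level was at least 19.7-fold higher than a floor of 3 reads over the control group, with an edgeR adjusted p of 0.0300. The gene passed the filter on low counts through the knockouts alone, and without that filter the edgeR adjusted p was 0.0155. The control floor equals 0.0957 CPM, which covers counting error only. The edgeR call was lost with knockout 1 and 2 as 1 library (adjusted p = 0.177). It was also lost without knockout 1, 2 or 3 (0.169, 0.179 and 0.0814) and without control 2 (0.0588). With the replicate number as a block it was lost too (0.0561). DESeq2 and limma-voom called the gene with all 6 libraries (adjusted p 0.000352 and 0.00784). With knockout 1 and 2 as 1 library limma-voom missed (0.103), and DESeq2 gave no adjusted p.

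The other cationic carriers did not pass. Slc7a1, the widely expressed arginine carrier gene, had 27.2, 25.2 and 20.4 CPM in controls and 19.4, 18.8 and 20.7 CPM in knockouts, with overlap and a log2 fold change of −0.30 ± 0.21 (SE). Slc7a2, whose protein supplies arginine to nitric oxide synthesis in macrophages, had 6.11, 14.6 and 14.0 CPM in controls and 6.79, 5.71 and 4.32 CPM in knockouts. Control 1 lay among the knockouts, and the log2 fold change of −1.05 ± 0.39 (SE) had an edgeR adjusted p of 0.136. It passed without control 1 (0.0380) and by limma-voom (0.0114), and missed by DESeq2 (0.0967), without control 2 or 3 (edgeR 0.278 and 0.227) and with knockout 1 and 2 as 1 library (0.323 by edgeR, 0.211 by DESeq2 and 0.0933 by limma-voom). In the sum of the 3 genes per kb, Slc7a3 contributed 18.9%, 22.3% and 15.9% in the knockouts and 0% in the controls, while Slc7a2 contributed 37.0% ± 13.0 in controls and 21.3% ± 3.65 in knockouts (SD, n = 3 per group). The sum itself was 3.03, 3.78 and 3.30 CPM per kb in controls and 2.99, 2.90 and 2.697 in knockouts. All knockouts lay below all controls in that sum, by a small margin against control 1. Slc7a2 shares 635 bases of exon with Gm26584 on the other strand, and the counting's strand setting is not given. The related genes Slc7a4, of unclear function, and Slc7a14, whose protein is lysosomal, ranged from 0 to 2.61 CPM and from 1.14 to 9.98 CPM over the 6 libraries, with overlapping groups.

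Among the SLC38 genes, Slc38a4 rose in every knockout library. Slc38a4 (ENSMUSG00000022464; chromosome 15, 96994820 to 97055956, minus strand) encodes a sodium-coupled carrier of neutral amino acids of the transport activity called system A, and is an imprinted gene known from placenta and liver. It had 31.5, 23.9 and 25.1 CPM in the controls and 57.3, 60.6 and 47.9 CPM in the knockouts. The lowest knockout lay above the highest control. This 2.06-fold rise, 1.04 ± 0.19 (SE) in log2, had an edgeR adjusted p of 0.0205. With knockout 1 and 2 as 1 library it was 1.00, with adjusted p of 0.128 by edgeR, 0.0227 by DESeq2 and 0.0113 by limma-voom. The edgeR call was also lost without control 2 (0.0567), without knockout 1, 2 or 3 (0.121, 0.132 and 0.0620) and with scaling by library size alone (log2 fold change 0.76, adjusted p 0.0731).

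Slc38a4 also took a larger share of the system A transcripts in the knockouts. Slc38a1 and Slc38a2, the other system A genes, did not pass. Slc38a1 had 28.2, 33.6 and 34.3 CPM in controls and 42.5, 41.9 and 33.0 CPM in knockouts. Slc38a2, the system A gene known to be induced by amino acid shortage, had 57.3, 62.3 and 57.7 CPM in controls and 54.4, 57.1 and 45.5 CPM in knockouts. Its groups did not overlap, but its log2 fold change was −0.17 ± 0.16 (SE) with an edgeR adjusted p of 0.545. Per kb, Slc38a4 took 47.7%, 38.4% and 40.8% of the system A sum in controls and 60.9%, 61.5% and 61.4% in knockouts. The sum was 14.8 ± 0.594 CPM per kb in controls and 21.2 ± 2.53 in knockouts (SD, n = 3 per group), a description with no test.

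Slc38a5 encodes a glutamine and histidine carrier of system N. It had 6.59, 4.75 and 4.14 CPM in controls and 11.9, 10.4 and 10.4 CPM in knockouts, without overlap. Its log2 fold change of 1.08 ± 0.32 (SE) missed the edgeR threshold (adjusted p 0.0770) and passed by DESeq2 (0.0350) and limma-voom (0.0232). With the trend in gene length and GC content removed it was 0.81 (edgeR adjusted p 0.180), and with knockout 1 and 2 as 1 library 1.07 (0.298). Slc38a5 is known from Sertoli cells among other types, and of 10 Sertoli cell markers Cldn11, Clu and Inha were called higher in the same knockouts, while Amh stayed at or below 0.191 CPM in every library; the part of Sertoli cell RNA in the Slc38a5 difference was not tested. The remaining SLC38 genes overlapped between the groups. Slc38a9, whose lysosomal protein reports arginine to mTORC1, had 17.8 ± 5.30 and 15.7 ± 3.60 CPM (SD, n = 3 per group). Slc38a7, a lysosomal glutamine carrier gene, had 4.40 ± 2.51 and 6.66 ± 0.984 CPM, Slc38a6 3.38 ± 1.77 and 3.90 ± 1.44 CPM, and Slc38a10 7.87 ± 1.38 and 7.24 ± 3.25 CPM. Their log2 fold changes ran from −0.18 to 0.59.

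**Figure D3:**
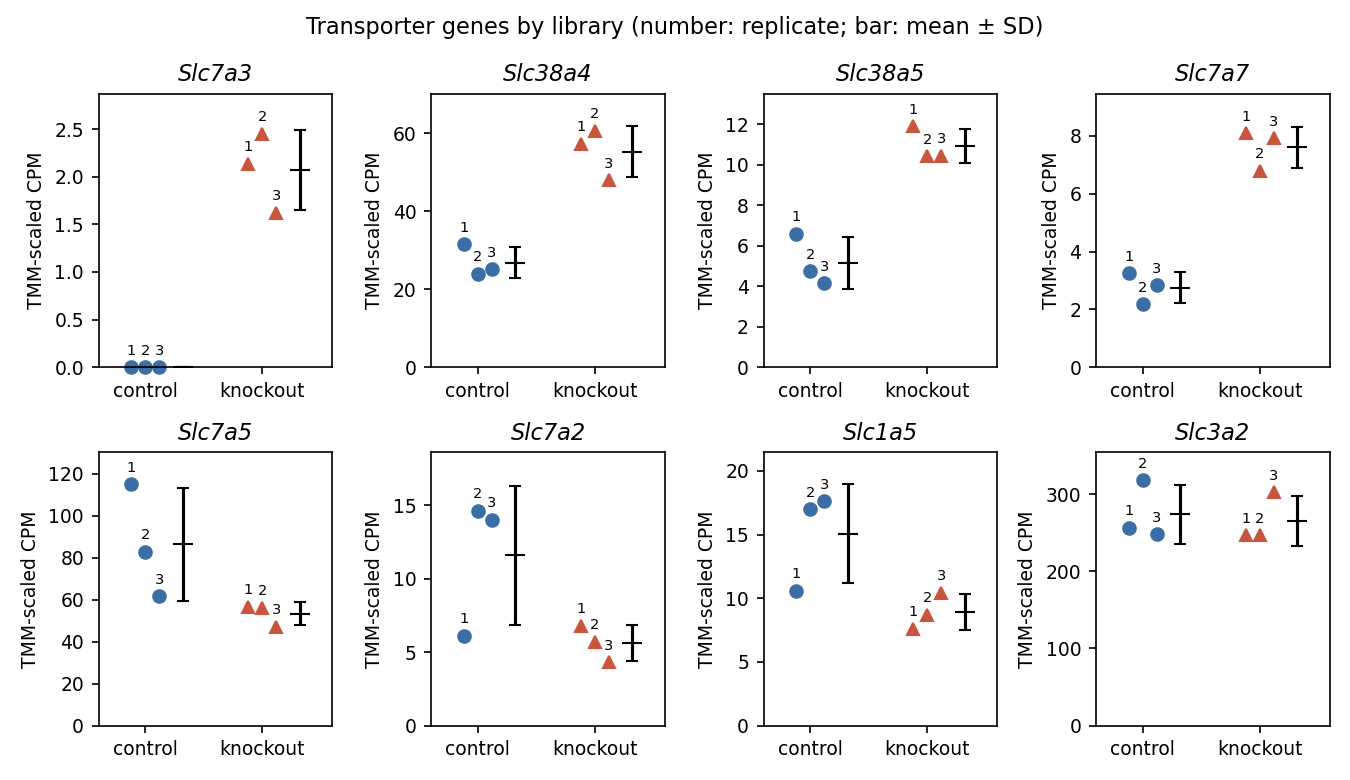
TMM-scaled CPM of 8 transporter genes in each control library (circles) and each knockout library (triangles), numbered by replicate, with mean and SD beside them. The upper row shows genes higher in the knockouts without overlap, of which Slc7a3 and Slc38a4 were called; in the lower row Slc7a5 and Slc1a5 lie lower without overlap, Slc7a2 overlaps through control 1, and Slc3a2 overlaps.

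Neither the CD98 heavy chain nor any of its tested light chains passed the edgeR test. Slc3a2 had 256, 318 and 248 CPM in controls and 247, 247 and 302 CPM in knockouts, with full overlap. Its log2 fold change of −0.05 ± 0.17 (SE) had an edgeR adjusted p of 0.902. Slc7a5 encodes LAT1, the light chain that imports leucine and other large neutral amino acids. It had 115, 82.9 and 61.7 CPM in controls and 56.7, 56.2 and 47.1 CPM in knockouts. The controls spread over a wide range, and control 3 lay just above the highest knockout. The log2 fold change of −0.70 ± 0.22 (SE) missed the edgeR threshold (adjusted p 0.0895), and passed by DESeq2 (0.0413), by limma-voom (0.0211), with library size scaling (0.0447) and without control 3 (0.0390). Without control 1, the highest library, it was −0.44 (edgeR adjusted p 0.144), and without control 2 −0.72 (0.15). With knockout 1 and 2 as 1 library it was −0.74 (edgeR adjusted p 0.252).

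Slc7a7 encodes the light chain y+LAT1, which exports cationic amino acids from epithelia and macrophages. It had 3.25, 2.18 and 2.84 CPM in controls and 8.09, 6.80 and 7.92 CPM in knockouts, without overlap. The log2 fold change of 1.46 ± 0.38 (SE) missed the edgeR threshold with an adjusted p of 0.0539, passed by DESeq2 (0.0130) and limma-voom (0.0341), and was 1.48 (edgeR adjusted p 0.238) with knockout 1 and 2 as 1 library. Beside it, none of 8 macrophage markers was called: Csf1r had 62.7 to 70.3 CPM in controls and 59.4 to 67.5 in knockouts, and Lyz2, the most abundant, 304 to 905 and 1126 to 1765 CPM. The part of macrophage RNA in the Slc7a7 difference was not tested. Exons of Slc7a7 share 232 bases with Oxa1l on the other strand.

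The 4 other light chain genes overlapped or were near the floor. Slc7a6, which encodes the related carrier y+LAT2, had 15.2, 15.2 and 20.9 CPM in controls and 10.6, 13.4 and 15.2 CPM in knockouts. Slc7a8, the gene of another leucine carrier, LAT2, had 8.69, 7.78 and 5.52 CPM in controls and 6.04, 8.16 and 8.91 CPM in knockouts. Their edgeR adjusted p were 0.401 and 0.922. Slc7a11, the cystine-glutamate exchanger gene and an ATF4 target, had 0, 2.94 and 2.91 CPM in controls and 2.23, 1.81 and 3.60 CPM in knockouts, so control 1 stood apart from the other 5 libraries. Summed per kb, the 6 light chains came to 37.3, 28.1 and 23.4 in controls and 21.6, 22.5 and 20.5 CPM per kb in knockouts. Slc7a5 took 78.0% ± 6.23 of that sum in controls and 66.7% ± 4.49 in knockouts, and Slc7a7 2.88% ± 0.692 and 10.7% ± 1.35. Without Slc7a5 the light chains summed to 6.24 ± 0.499 in controls and 7.17 ± 0.759 CPM per kb in knockouts. The level of Slc3a2 was 2.72 ± 0.676 times that of its light chains in controls and 3.51 ± 0.581 times in knockouts, with overlap.

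**Figure D4:**
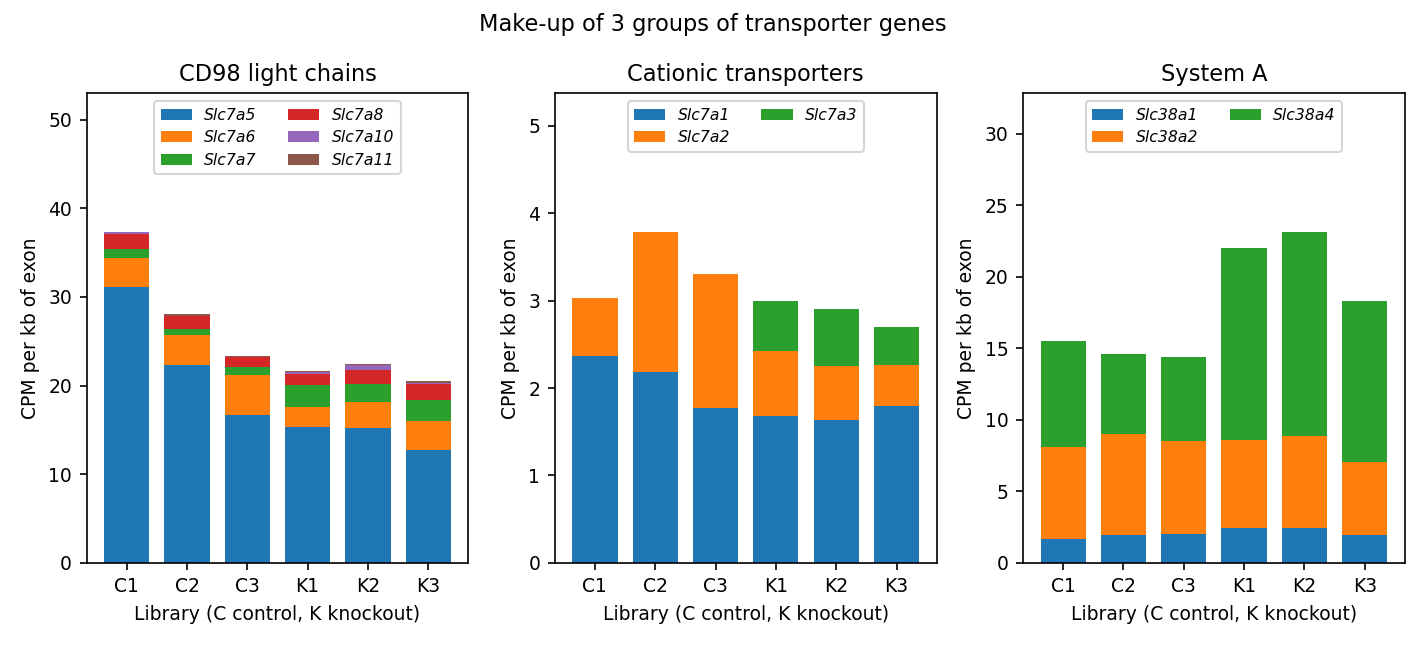
Stacked CPM per kb of exon in each control (C1 to C3) and knockout (K1 to K3) library for the CD98 light chain genes, the cationic transporter genes and the system A genes. Slc7a5 makes up most of every light chain bar, Slc7a3 appears in the knockout bars alone, and Slc38a4 is the largest part of system A in each knockout.

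Of the glutamate and neutral amino acid carriers of SLC1, none passed the edgeR test (1 of 4 tested at an unadjusted p under 0.05; 0 by DESeq2 and 1 by limma-voom). Slc1a5 encodes ASCT2, a sodium-coupled exchanger that brings in glutamine. It had 10.6, 17.0 and 17.6 CPM in controls and 7.62, 8.71 and 10.4 CPM in knockouts. Control 1 lay close to knockout 3, with no overlap. The log2 fold change was −0.76 ± 0.29 (SE), with adjusted p of 0.151 by edgeR, 0.134 by DESeq2 and 0.00800 by limma-voom. Its relative Slc1a4 (ASCT1, alanine and serine) had 5.83, 3.42 and 1.99 CPM in controls and 4.74, 5.44 and 2.701 CPM in knockouts. The glutamate carrier genes Slc1a3 and Slc1a1 had 5.05 ± 0.792 and 6.62 ± 1.19 CPM, and 1.27 ± 0.576 and 1.06 ± 0.330 CPM. Slc1a1 shares 2631 of its 8257 exon bases with 4430402I18Rik on the other strand.

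Of the SLC43 genes, none passed by any of the 3 tools, and none had an unadjusted p under 0.05 by edgeR. Slc43a3, whose protein is known as a carrier of purine nucleobases and not of amino acids, was the most abundant, with 23.9, 24.3 and 26.0 CPM in controls and 15.2, 18.7 and 20.2 CPM in knockouts. The groups did not overlap, and the log2 fold change of −0.46 ± 0.21 (SE) had an edgeR adjusted p of 0.213. Slc43a1 and Slc43a2 encode the branched-chain amino acid carriers LAT3 and LAT4. In both genes knockout 3 differed from the other knockouts. Slc43a1 had 7.07, 5.79 and 6.29 CPM in controls and 3.44, 3.08 and 11.6 in knockouts. Slc43a2 had 22.5, 9.21 and 13.5 CPM in controls and 6.51, 6.80 and 14.7 in knockouts. Without knockout 3 the log2 fold change of Slc43a1 moved from −0.08 to −0.97 and that of Slc43a2 from −0.69 to −1.18 (−0.29 without control 1).

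The SLC36 genes did not pass either. Slc36a4 had 18.4, 18.4 and 27.0 CPM in controls and 19.8, 19.1 and 21.0 CPM in knockouts, a log2 fold change of −0.09 ± 0.23 (SE). Slc36a1, the gene of a lysosomal carrier that takes part in mTORC1 activation, had 2.29, 0.664 and 3.30 CPM in controls and 3.63, 3.45 and 2.97 CPM in knockouts. By edgeR both had an adjusted p above 0.5 (0.848 and 0.555).

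Between families, SLC38 was higher and SLC1 and SLC7 lower in every knockout than in every control, as sums per kb without a test. The SLC38 sum was 22.7, 19.8 and 20.8 CPM per kb in controls and 31.3, 31.9 and 27.7 in knockouts, a ratio of means of 1.44, or 1.19 with library size scaling. The SLC7 sum was 40.5, 32.3 and 27.6 against 25.8, 26.7 and 24.2 CPM per kb, a ratio of 0.764. Slc7a5 made up 63.9% of the SLC7 level in the mean over all libraries. The SLC1 sum went from 5.33 ± 0.555 to 4.32 ± 0.325 CPM per kb (SD, n = 3 per group), with Slc1a5 at 59.6% of its level. Single genes weighed heavily in these sums. In the means, Slc38a4 went from 6.30 to 13.0 and Slc38a5 from 2.30 to 4.87 CPM per kb. Slc7a5 went from 23.4 to 14.4 and Slc1a5 from 3.61 to 2.14 CPM per kb. Other members of each of the 3 families went either way. SLC43 and SLC36 overlapped, at 8.16 ± 0.735 and 6.03 ± 1.76, and at 3.62 ± 0.953 and 3.65 ± 0.0999 CPM per kb. Over all 31 genes the sum was 149 ± 11.1 in controls and 145 ± 7.48 CPM per kb in knockouts.

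**Figure D5:**
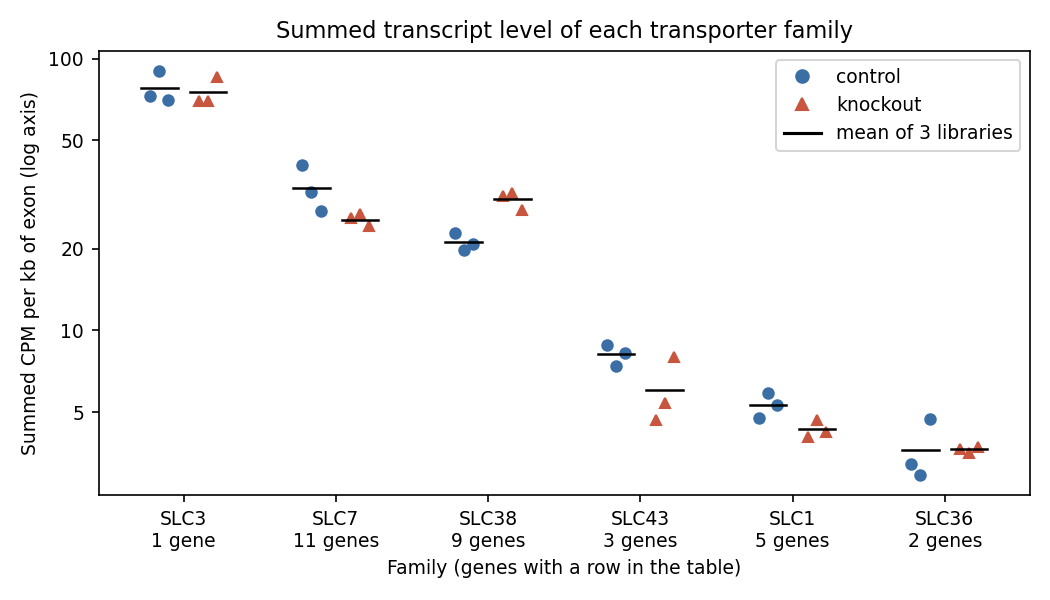
Summed CPM per kb of exon on a log axis for each family, with 3 control libraries as circles, 3 knockout libraries as triangles and their means as lines. SLC38 lies higher in the knockouts (21.1 to 30.3 in the means), SLC7 and SLC1 lower, and SLC3, SLC43 and SLC36 overlap.

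Transporter genes outside the 32 were also measured. Of 44 further carrier genes of amino acids and related molecules, 38 had a row and 21 were tested. By edgeR 0 were called, against 4.83% of all genes, and 2 (9.52%) had an unadjusted p under 0.05, against 24.1%. DESeq2 called 1 and limma-voom 4, against 11.1% and 19.5% of all genes. The peptide carrier gene Slc15a2 had 34, 15 and 45 reads in controls and 6, 4 and 2 reads in knockouts (edgeR adjusted p 0.0746). Slc25a12, the mitochondrial aspartate-glutamate carrier gene, had 17.8 ± 2.07 CPM in controls and 25.5 ± 3.18 in knockouts (SD, n = 3 per group; edgeR adjusted p 0.165). Slc7a9, the light chain gene that pairs with Slc3a1, had 6.24 ± 4.18 and 2.51 ± 1.34 CPM (edgeR adjusted p 0.225).

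Of the genes that sense or answer amino acid supply, a few were called. Of 58 such genes 54 were tested, 2 rose and 3 fell by edgeR, 9.26% of those tested, against 4.83% of all genes. At an unadjusted p under 0.05 by edgeR the share was 20.4% against 24.1% of all genes, and without overlap between the groups 29.6% against 32.6%. With knockout 1 and 2 as 1 library edgeR called 0 of them (7 had an unadjusted p under 0.05, with 14% of all genes). DESeq2 and limma-voom each called 4 of them in that setting, and 465 and 505 of all 15406 genes. Part of these 15406 genes had no adjusted p by DESeq2. Asns, the asparagine synthetase gene, had 20.4, 21.1 and 24.1 CPM in controls and 57.4, 58.2 and 75.7 CPM in knockouts, a log2 fold change of 1.54 (edgeR adjusted p 0.0101). Sesn2, whose protein senses leucine, had 2.39, 2.66 and 1.30 CPM in controls and 10.4, 7.44 and 8.28 CPM in knockouts (2.04, edgeR adjusted p 0.0279). Both rose without overlap. Rragd and Fnip2, which encode a GTPase that recruits mTORC1 to the lysosome and a partner of its regulator folliculin, fell by 1.24 and 1.12 on the log2 scale (edgeR adjusted p 0.0154 and 0.0205). Atf4 itself had 93.1, 58.1 and 59.0 CPM in controls and 69.3, 65.6 and 73.8 CPM in knockouts, a log2 fold change of −0.01 ± 0.20 (SE).

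Start sites were searched for 2 motifs because several carrier genes are known targets of ATF4 or of E-box factors. The first, TGATGNAA on either strand, is the core of the C/EBP-ATF elements that ATF4 binds together with C/EBP proteins. The second, CACGTG, is the E-box bound by MYC and by the lysosomal regulator TFEB. In RefSeq windows of 300 bases around each start site (build GRCm38.p6), 24 of the 32 genes had 33 windows. Slc7a3, Slc7a5, Slc1a5, Slc7a2, Slc7a4, Slc38a1, Slc38a3 and Slc43a3 had no window and were not searched. The first motif was in 4 of them, 12.1%, against 3.97% of all 32851 windows, and the second in 5, 15.2%, against 7.15%. Windows of 1 gene can overlap. Of the 4 windows with the first motif, 2 were overlapping windows of Slc7a7 that shared 1 match, TGATGCAA. A match describes the sequence alone. The stretches below run 5′ to 3′ in the sense of the gene, with the motifs in capitals. They span from 80 bases before the start site to 8 bases from it on. Asns, which rose, stands beside 2 carrier genes that did not pass. The stretch of Slc7a7, which was higher in the knockouts without overlap but missed the edgeR threshold, is not printed.
Asns, chr6:7693202-7693289, minus strand: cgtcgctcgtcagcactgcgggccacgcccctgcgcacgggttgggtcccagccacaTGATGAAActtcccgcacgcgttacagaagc
Slc7a11, chr3:50443606-50443693, minus strand: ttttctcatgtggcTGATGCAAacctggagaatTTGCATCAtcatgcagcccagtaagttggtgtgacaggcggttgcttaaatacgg
Slc1a4, chr11:20332706-20332793, minus strand: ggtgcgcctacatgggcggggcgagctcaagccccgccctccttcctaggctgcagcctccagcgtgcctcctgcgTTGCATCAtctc

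The first motif thus lay near the start of Asns, of Slc7a11 in both orientations and of Slc1a4. Of these Asns was called, and Slc7a11 and Slc1a4 were not (edgeR adjusted p 0.860 and 0.855); their fold changes turned sign when 1 library was left out. The first motif was also in 2 of 5 windows of Slc7a7 and in none of the 3 windows of Slc38a4. In window 5 of Slc7a7 a match, TGATGCAA, began 1 base before the start site. Slc7a7 was higher in the knockouts without overlap, with a log2 fold change of 1.46. It missed the edgeR threshold (adjusted p 0.0539) and was called by DESeq2 and limma-voom. With knockout 1 and 2 as 1 library its edgeR adjusted p was 0.238. The E-box lay in the last 40 bases before the start in 3 carrier genes, shown because 2 of them, Slc36a1 and Slc38a7, encode lysosomal carriers and Slc38a5 had groups that did not overlap.
Slc36a1, chr11:55204260-55204347, plus strand: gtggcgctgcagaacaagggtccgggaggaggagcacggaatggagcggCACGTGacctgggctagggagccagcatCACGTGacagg
Slc38a7, chr8:95853484-95853571, minus strand: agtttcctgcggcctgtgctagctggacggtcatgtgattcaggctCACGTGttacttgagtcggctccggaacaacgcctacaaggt
Slc38a5, chrX:8271301-8271388, plus strand: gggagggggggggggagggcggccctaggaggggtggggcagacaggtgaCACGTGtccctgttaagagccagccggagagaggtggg

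The E-box also occurred in windows of Slc7a14 and Slc43a1. None of the 5 carrier genes with an E-box match in its window was called by edgeR (1 had an unadjusted p under 0.05; DESeq2 and limma-voom each called Slc38a5).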

How the data were processed

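RNA of about 1000 cells per library was reverse-transcribed from oligo-dT and amplified by PCR (SMART-seq2), then read from both ends for 150 bases, per the labels' protocols. The authors deposited raw read counts per Ensembl gene. The submitters' processing notes name STAR 2.7.5c, Trimmomatic 0.39, edgeR, DESeq2, StringTie 2.1.7 and mm10 without roles. Which counter, annotation, strand setting and filter were used is not given in the sources used here. PCR copies carry no molecular identifiers, so counting errors are understated.

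Symbols, positions and exon lengths came from GENCODE M21 (22562 of 22579 identifiers matched). Exon length is the union over all transcripts. The main test was the edgeR 4.0.16 quasi-likelihood F test (R 4.3.3; TMM scaling, filterByExpr, robust dispersion) with genotype as the sole term. A gene was called when its p, adjusted by Benjamini-Hochberg over all 14766 genes tested, was under 0.05. All p-values are two-sided, and each standard error is the absolute log2 fold change divided by √F. DESeq2 1.42.0 and limma 3.58.1 (voom with quality weights) were alternatives. Running them also with knockout 1 and 2 as 1 library was chosen after seeing the data. The members and lists were chosen with earlier results of these data known. Full values are given for members called, with an unadjusted p under 0.05, most abundant in their family, at 0 in a group or part of CD98; others named with values were chosen after these were seen. A gene was near the floor with a mean under 10 reads in both groups or when it failed the filter. A further gene of the sensing list is not reported here.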

Additional observations from a re-analysis of the deposited data

How the results depend on the processing

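The number of transporter genes called by edgeR was 2 with all libraries, 0 to 5 with 1 library left out, 1 with the replicate number as a block, 0 with knockout 1 and 2 as 1 library (6 at an unadjusted p under 0.05), 5 by DESeq2 and 7 by limma-voom. Counting knockout 1 and 2 as 1 library, DESeq2 gave 1 and limma-voom 1, with Slc7a3 and others given no adjusted p by DESeq2. Library size scaling gave 2, Slc7a3 higher and Slc7a5 lower. It was 0 without control 2 and without any 1 of the knockouts, with 5 to 10 genes at an unadjusted p under 0.05. Over all genes the count was 713, and 3 to 839 with 1 library left out, 1378 with library size scaling, 1641 by DESeq2, 2882 by limma-voom, and 1 by edgeR and 465 by DESeq2 with knockout 1 and 2 as 1 library. Library size scaling turned 300 higher and 413 lower calls into 226 and 1152, and shifted the medians in log2 to −0.26 over all genes and −0.25 over the transporter genes, each 0.01 with TMM. It gave family ratios of 0.681 for SLC1 and 1.19 for SLC38. Same-numbered control and knockout libraries did not deviate together (correlations 0.000853, 0.0116 and 0.0165), so the number was not taken as a pairing; with the block the call of Slc7a3 was lost (edgeR adjusted p 0.0561) and 683 genes were called in all.

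Directions turned in uncalled genes near 0. With library size scaling the log2 fold changes were −0.092 for Slc1a4, −0.20 for Slc7a8 and −0.11 for Slc38a6. With knockout 1 and 2 as 1 library they were 0.00685 for Slc3a2 (0.00681 by DESeq2), 0.057 for Slc38a10, 0.23 for Slc43a1 (0.029 by limma-voom) and 0.078 for Slc38a9 by limma-voom. With the length and GC trend removed they were 0.00805 for Slc36a4, 0.041 for Slc38a9, 0.00280 for Slc38a10 and 0.00852 for Slc43a1. With 1 library left out the values ran from −0.54 to 0.17 for Slc1a1, −0.11 to 0.67 for Slc1a4, −0.15 to 0.085 for Slc3a2, −0.10 to 0.23 for Slc7a8, −0.20 to 0.79 for Slc7a11, −0.19 to 0.11 for Slc36a4, −0.11 to 0.63 for Slc38a6, −0.39 to 0.061 for Slc38a9, −0.55 to 0.088 for Slc38a10 and −0.97 to 0.24 for Slc43a1. The cause was not tested. Slc38a4 kept its sign in all 18 alternatives (0.76 to 1.21). At these depths a gene with 0 reads in a library can stand at up to 0.240 to 0.356 CPM of total counts.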
